A study of Mus musculus with 4 samples.

Results

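R-spondins, the Lgr receptors that bind them and the ubiquitin ligases Rnf43 and Znrf3 form 1 module of the Wnt pathway, described here in differentiating muscle cells with and without a functional *Rspo1* gene. The module was taken as 9 genes, found by their Entrez gene numbers among the 24973 rows of the deposited table: the ligands *Rspo1*, *Rspo2*, *Rspo3* and *Rspo4*, the receptors *Lgr4*, *Lgr5* and *Lgr6*, and the ligases *Rnf43* and *Znrf3*. All 9 were among the 24011 genes that could be named and tested, and the rule that names them uses no measured value. Primary myoblasts from limb muscles of Rspo1-null and wild-type mice, all on a mixed C57bl6N/sv129 background, were profiled on Affymetrix GeneChip Mouse Gene 2.1 ST arrays. Both groups held 2 arrays, 1 for each independent culture. Cells of both genotypes were expanded with 20% serum and bFGF at 2 ng/ml for 5 passages and harvested after 24 h in medium with 2% horse serum. All 4 arrays thus describe whole cultures early in differentiation. None was made from cells kept in growth medium or from quiescent satellite cells. These culture conditions are those of the labels, and the study's methods give other values for the bFGF and the passages. The labels name no further treatment. The mice of the wider study were young adults, and its controls also include heterozygous animals, whereas these arrays are labelled wild-type.

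R-spondins are secreted proteins that amplify Wnt signals. Rnf43 and Znrf3 are membrane-bound E3 ligases that mark Frizzled receptors and their Lrp co-receptors for removal from the cell surface, and an R-spondin that bridges an Lgr receptor to one of these ligases causes the ligase itself to be cleared, so that more Wnt receptor stays on the cell. In the intestine *Lgr5* marks stem cells, *Rnf43* and *Znrf3* are induced by β-catenin as brakes, and *Rspo1* is best known from ovary determination. In skeletal muscle R-spondins have been tied to the differentiation of satellite cell progeny.

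The sequences just before RefSeq start sites are shown first, for the genes with signal that had a matched window. The arrays do not show where the measured transcripts begin. RefSeq windows on GRCm38.p6 were matched for 5 of the 9 genes, *Rspo1*, *Rspo4*, *Lgr4*, *Lgr6* and *Rnf43*, while *Rspo2*, *Rspo3*, *Lgr5* and *Znrf3* had no matched window. The 250 bases before the start are given 5′ to 3′ on the strand of the gene for *Rspo1* (chr4:124986180-124986429, plus strand), *Lgr6* (chr1:135105277-135105526, minus strand) and *Lgr4* (chr2:109917397-109917646, plus strand), with matches to the searched motifs in capitals.
Rspo1: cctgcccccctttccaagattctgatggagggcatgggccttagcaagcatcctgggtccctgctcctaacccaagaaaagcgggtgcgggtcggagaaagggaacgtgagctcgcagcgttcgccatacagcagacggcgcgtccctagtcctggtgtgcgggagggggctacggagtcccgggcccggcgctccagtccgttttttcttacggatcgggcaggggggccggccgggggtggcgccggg
Lgr6: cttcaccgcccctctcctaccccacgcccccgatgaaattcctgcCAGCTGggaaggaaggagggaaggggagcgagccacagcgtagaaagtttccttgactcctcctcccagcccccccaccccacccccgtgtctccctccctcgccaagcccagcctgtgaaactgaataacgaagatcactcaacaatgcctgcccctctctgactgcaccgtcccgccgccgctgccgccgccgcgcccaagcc
Lgr4: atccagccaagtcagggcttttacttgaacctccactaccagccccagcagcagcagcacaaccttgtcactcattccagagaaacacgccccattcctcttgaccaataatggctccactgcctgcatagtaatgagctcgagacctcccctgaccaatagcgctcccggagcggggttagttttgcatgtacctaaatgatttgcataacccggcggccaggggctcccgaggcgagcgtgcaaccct
Both strands were searched for the E-box CANNTG, a core bound by MyoD and Myogenin, for CTTTGA, a core of the sites bound by TCF/LEF factors, and for TAATTA, a core bound by many homeodomain proteins. The *Lgr6* window held 1 E-box, in capitals above, and the *Rspo1* and *Lgr4* windows held no match to any of the 3. Of all 32851 windows of this length, 66.2% held an E-box, 13.8% CTTTGA and 4.84% TAATTA. The GC content was 66.8% in the *Rspo1* window, 65.2% in the *Lgr6* window and 55.6% in the *Lgr4* window, against a median of 52.4% over all windows. These are letters in a short window and say nothing of binding.

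The 4 arrays had medians between 4.62 and 4.69 on the log2 scale, and their number limits the precision of every value. *Xist*, the RNA of the inactive X chromosome, read 10.38 in the array Rspo1-null 1 and 10.39 in wild-type 2, and the Y-linked *Eif2s3y* read 8.51 in Rspo1-null 2 and 8.19 in wild-type 1, so that each genotype holds 1 array of each sex and its 2 cultures come from different mice. A background level of 4.69 was set at the 95th percentile of 1091 olfactory receptor genes, most of which muscle cells are not known to use. All 14 genes fixed as marks of myoblasts and myocytes, such as *Pax7*, *Myf5* and *Myod1*, lay above it in all 4 arrays. The endothelial genes (6 of 6, with *Pecam1*, *Cdh5* and *Kdr*), adipocyte genes (4 of 4, with *Adipoq*, *Plin1* and *Lep*) and Schwann cell genes (3 of 3, *Sox10*, *S100b* and *Mbp*) lay below it in all 4, as did 5 of 6 leukocyte genes, with *Ptprc*, *Csf1r* and *Adgre1* among them, and 6 of 10 fibroblast genes, with *Dcn*, *Lum* and *Pdgfra* among them. The other 4 fibroblast genes had signal, *Col1a1*, *Col3a1* and *Thy1* in all 4 arrays and *Col6a1* in 3, with *Col3a1* at 7.82 and 7.09 in Rspo1-null, against 7.16 and 7.61 in wild-type arrays. Of 5 pericyte and smooth muscle genes, 2 lay below it in all 4 arrays, and *Rgs5*, *Cspg4* and *Abcc9* did not.

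Of the 9 genes, 4 lay above the background level in all 4 arrays and 5 lay below it in all 4, with none in between, where 45.0% of all genes tested were above it in every array. The 4 genes with signal covered each role once or more: the ligand *Rspo1*, the receptors *Lgr4* and *Lgr6*, and the ligase *Znrf3*. The other R-spondins, *Lgr5* and *Rnf43* read between 2.93 and 4.23. Each of these 5 genes was exceeded by 110 to 390 of the 1091 olfactory receptor genes in the mean of the 4 arrays. With the 99th percentile of the olfactory receptor genes as the level, 6.20, only *Lgr6* was above it in every array.

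**Figure D1:**
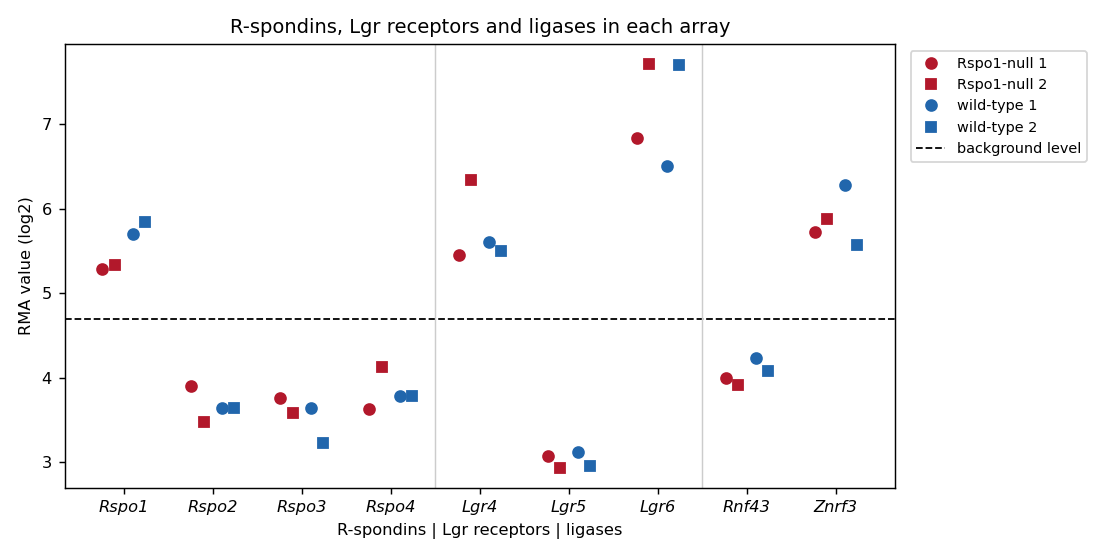
RMA value (log2) of each of the 9 genes in each array, Rspo1-null in red and wild-type in blue, circles for arrays numbered 1 and squares for arrays numbered 2; the dashed line is the background level of 4.69. *Rspo1*, *Lgr4*, *Lgr6* and *Znrf3* lie above the line in all 4 arrays, the other 5 genes below it; heights of different genes are not on a common scale.

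Among the ligands, *Rspo1* was the only one with signal, and it was the targeted gene. It read 5.29 and 5.33 in the Rspo1-null arrays, against 5.71 and 5.84 in the wild-type arrays. The groups did not overlap, and the gap between the higher Rspo1-null and the lower wild-type array was wider than the gap between arrays of one genotype. The mean was 5.31 ± 0.03 in Rspo1-null and 5.77 ± 0.09 in wild-type cultures (SD, n = 2 each), and the Rspo1-null minus wild-type difference came to -0.46 (standard error 0.15, 95% interval -0.85 to -0.07). Its unadjusted p in limma was 0.0286 and its adjusted p 0.999, so it did not pass the test over all genes. By unadjusted p, 353 of the 24011 genes came before it, and 3.62% of all genes had a difference this low or lower. The Rspo1-null arrays retained a *Rspo1* signal above background in both cultures. In the mean of all 4 arrays, wild-type included, 22 of the olfactory receptor genes exceeded *Rspo1*. The sources used here do not say where the *Rspo1* probes lie against the deletion, so the values do not check the genotype labels.

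The background itself was not equal in the arrays. The 95th percentile of the olfactory receptor genes was 4.60 and 4.59 in the Rspo1-null arrays, against 4.88 and 4.72 in the wild-type arrays. Of the 1091 olfactory receptor genes, 68.9% had a lower mean in Rspo1-null, with a median difference of -0.08, and 26.5% were lower without overlap. *Rspo1* stood 0.69 and 0.74 above the level of its own array in Rspo1-null cultures, against 0.83 and 1.12 in wild-type cultures. On that measure the groups still did not overlap, with a narrower gap between them. Among the markers, the summed level (log2 of the sum of linear values) of the 10 fibroblast genes was 8.75 and 8.15 in Rspo1-null, against 8.29 and 8.45 in wild-type arrays, and that of the 5 pericyte and smooth muscle genes 7.57 and 7.19 in Rspo1-null, against 7.57 and 7.39 in wild-type arrays. The 6 leukocyte genes summed to 6.79 and 6.78 in Rspo1-null, against 7.05 and 6.84 in wild-type arrays, without overlap. Of these genes 5 lay below background in all 4 arrays, so array background enters the sum, and 19.1% of all genes were lower without overlap. *Adgre1*, a macrophage marker among those 5, had an unadjusted p of 0.0321 and an adjusted p of 0.999 in limma, where 3.17% of all genes passed an unadjusted p of 0.05. The part of the array background and of these cells in the *Rspo1* difference was not tested. The call rested on the fit: the unadjusted p was 0.0569 with an intensity trend and 0.0664 with the replicate number as a block, and it was between 0.0957 and 0.121 without the array Rspo1-null 1, Rspo1-null 2 or wild-type 2.

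The other ligands gave no signal in either genotype. *Rspo2*, needed for limb and lung development in mice, read 3.90 and 3.48 in Rspo1-null and 3.64 and 3.64 in wild-type arrays. *Rspo3*, a ligand of vascular development, read 3.75 and 3.58 in Rspo1-null and 3.64 and 3.23 in wild-type arrays. *Rspo4*, tied to nail formation in humans, read 3.63 and 4.12 in Rspo1-null and 3.78 and 3.78 in wild-type arrays. All 3 genes overlapped between the genotypes, and no array of a Rspo1-null culture brought one of them to the background level of 4.69. With the 90th percentile of the olfactory receptor genes as the level, 4.07, *Rspo4* was above it in Rspo1-null 2. No fold change is given for them, because a value below background carries only a bound. At this level of background a small rise in another R-spondin was not detectable.

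**Figure D2:**
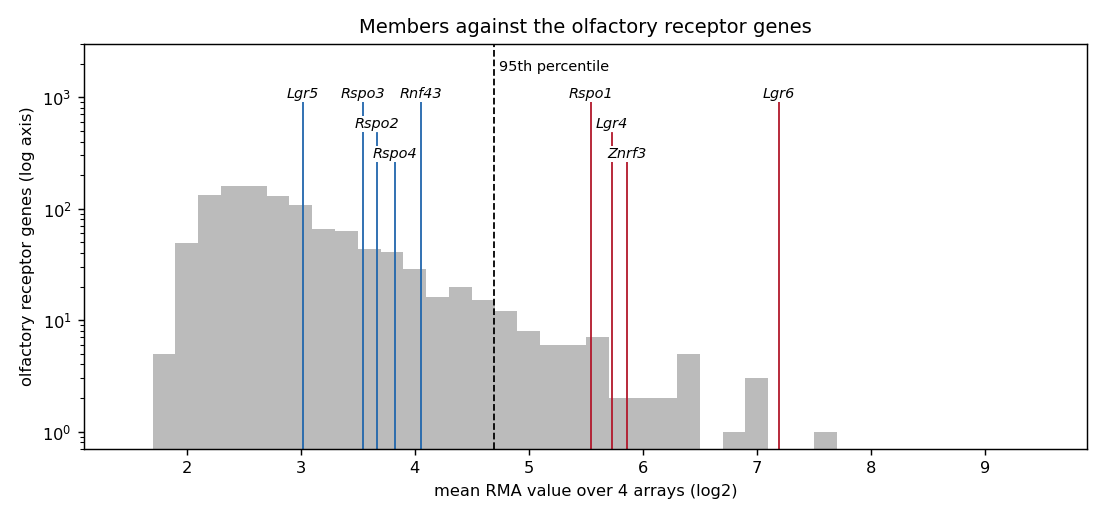
Histogram of the 4-array means (log2) of 1091 olfactory receptor genes, with counts on a log axis, and vertical lines at the 4-array means of the 9 genes (red, above background in all 4 arrays; blue, below it in all 4); the dashed line is the 95th percentile, 4.69. *Lgr6* is exceeded by 1 olfactory receptor gene, *Znrf3* by 14, *Lgr4* by 16 and *Rspo1* by 22.

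Among the receptors, *Lgr6* and *Lgr4* were present and *Lgr5* was not above background. *Lgr6*, which in mouse skin marks stem cells, read 6.84 and 7.71 in the Rspo1-null arrays, against 6.50 and 7.71 in the wild-type arrays. It varied most among the 9 genes, with a range of 1.21 over the arrays, and arrays of 1 genotype lay far apart: both arrays numbered 2 were at 7.71 and both numbered 1 were lower. Among the 12280 genes not below background in both genotypes, 11.7% likewise had both arrays numbered 2 above both numbered 1, and the labels do not say that a number stands for a shared batch. The genotypes differed by 0.17, Rspo1-null over wild-type (standard error 0.51, 95% interval -1.16 to 1.51, limma unadjusted p = 0.747). The interval is wide enough to hold more than a doubling in either direction. The sign turned when 1 array was left out, with -0.43 without wild-type 1 and -0.26 without Rspo1-null 2.

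*Lgr4*, a receptor with broad expression across tissues, read 5.46 and 6.34 in the Rspo1-null arrays, against 5.61 and 5.50 in the wild-type arrays. The array Rspo1-null 2 was high and the other 3 lay close together, so the groups overlapped. The difference was 0.34 (standard error 0.32, 95% interval -0.51 to 1.19, limma unadjusted p = 0.344). Without the array Rspo1-null 1 it was 0.78 (unadjusted p = 0.0248), and without Rspo1-null 2 it was -0.10; in both fits the lone Rspo1-null array is assumed to vary as the wild-type arrays do. The array that was high for *Lgr4* also had the highest summed level of the 14 myoblast and myocyte genes. The sum was 14.30 and 14.99 in Rspo1-null, against 14.79 and 14.13 in wild-type arrays. It is led by the brightest genes: *Myog* read 11.70 in Rspo1-null 2 and 9.96 in Rspo1-null 1, while *Pax7* read 7.10 and 8.17. The part of differentiation in the *Lgr4* values was not tested. *Lgr5*, the stem cell receptor of the intestine, read 3.07 and 2.93 in Rspo1-null and 3.12 and 2.95 in wild-type arrays, the lowest reading of the 9 genes against the olfactory receptors, 390 of which exceeded it. Hormone and relaxin receptors with the same leucine-rich repeat build, of which 4 of 5 fixed genes were named here, gave *Rxfp1* 5.12 and 3.77 in Rspo1-null and 5.34 and 4.40 in wild-type arrays, while *Fshr*, *Tshr* and *Rxfp2* were below background in all 4.

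Of the ligases, *Znrf3* had signal and *Rnf43* did not. *Znrf3* read 5.72 and 5.88 in the Rspo1-null arrays, against 6.28 and 5.58 in the wild-type arrays. Both Rspo1-null arrays lay inside the span of the wild-type arrays. The difference was -0.13 (standard error 0.27, 95% interval -0.85 to 0.59, limma unadjusted p = 0.657), and without the array wild-type 1 it was 0.22. *Rnf43* read 3.999 and 3.91 in Rspo1-null arrays, against 4.23 and 4.08 in wild-type arrays, all below background. Its groups did not overlap, but both genotypes were below background, and the lower Rspo1-null readings stand beside the lower background of those arrays given above; its part in them was not tested. Set against the level of its own array, *Rnf43* lay at -0.60 and -0.68 in Rspo1-null, against -0.65 and -0.64 in wild-type arrays, where the groups overlap.

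Across the 9 genes, 0 passed an adjusted p of 0.05 in limma, where 0.0% of all genes did, and 1, *Rspo1*, passed an unadjusted p of 0.05, where 3.17% of all genes did (1.97% lower and 1.2% higher in Rspo1-null). Values were free of overlap between genotypes in 2 of the 9, *Rspo1* and *Rnf43*, against 31.2% of all genes, and both were lower in Rspo1-null, as were 19.1% of all genes. Higher values without overlap were seen in 0 of the 9, against 12.1% of all genes. By means, 5 of the 9 were higher and 4 lower, with a median difference of 0.05, against -0.03 over all genes tested. These counts include the 5 genes below background, and with 9 genes a share near that of all genes is no result about the module. No rise of another R-spondin, of an Lgr receptor or of a ligase passed the test in the Rspo1-null arrays, and the intervals above bound what such a rise could have been only for the genes with signal.

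**Figure D3:**
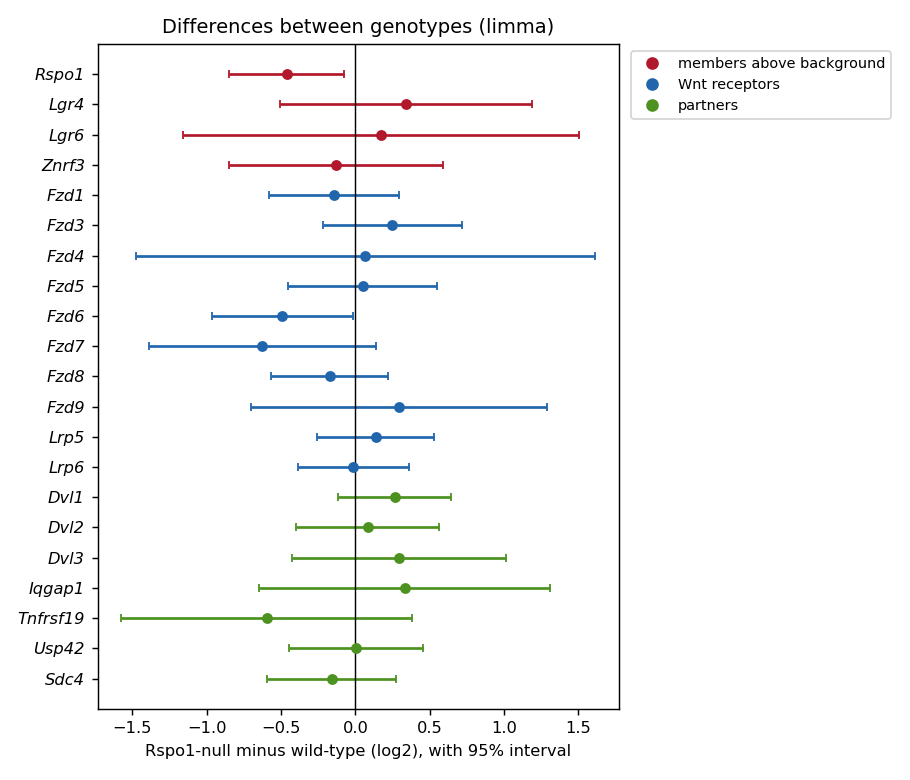
Difference between genotypes, Rspo1-null minus wild-type (log2), with the 95% interval from limma, for the 4 genes of the module above background (red), the Wnt receptors not below background in both genotypes (blue) and the partner proteins (green). Only *Rspo1* (-0.46) and *Fzd6* (-0.49) have intervals that exclude 0, and no gene passed an adjusted p of 0.05; *Tnfrsf19* was above background in 1 array only.

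Each genotype holds 1 array of each sex, which allows the difference to be read inside each sex as 1 array against 1. The *Rspo1* difference was -0.55 in the pair with *Xist* and -0.37 in the pair with Y-linked transcripts. It was the only gene with signal whose difference had the same sign in both pairs. As its groups did not overlap, any pairing across genotypes gives negative differences, so the shared sign restates the lack of overlap. With sex as a block the unadjusted p of *Rspo1* was 0.036 in limma. *Lgr4*, *Lgr6* and *Znrf3* had opposite signs in the pairs, as did 44.8% of the genes not below background in both genotypes; over the whole module 7 of 9 did, against 45.6% of all genes. For *Lgr4* and *Znrf3* the pair with *Xist* was entirely lower than the pair with Y-linked transcripts, with a mean distance of -0.49 for *Lgr4* and -0.43 for *Znrf3*, where 20.8% of the genes not below background did the same. The pairs also differed in the summed level of the 14 myoblast and myocyte genes. It was 14.30 and 14.13 in the arrays with *Xist*, against 14.99 and 14.79 in those with Y-linked transcripts. This sum of linear values is led by the brightest genes, and its members did not all go the same way. *Pax7* read 8.17 and 7.85 with *Xist*, against 7.10 and 6.38 with Y-linked transcripts, and *Myf5* 8.21 and 8.25, against 6.81 and 5.91. *Myog* was lower with *Xist*, at 9.96 and 9.56, against 11.70 and 11.07. Sex and the level of these genes therefore cannot be told apart in the pairs or in the sex block.

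**Figure D4:**
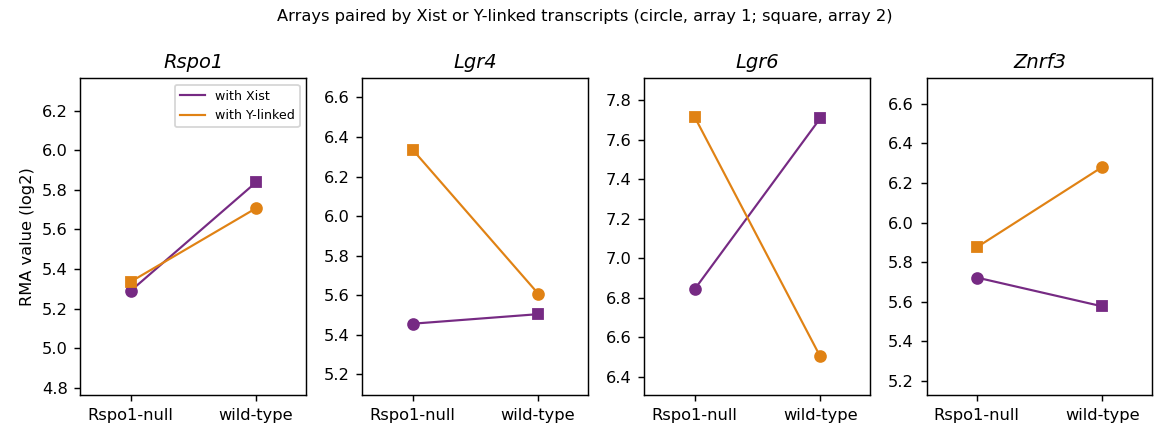
RMA value (log2) of the 4 genes above background, Rspo1-null left and wild-type right, with lines joining the arrays with *Xist* (purple) and the arrays with Y-linked transcripts (orange); every panel spans the same 1.6 log2 units. The *Rspo1* lines rise together toward wild-type, by 0.55 and 0.37, while those of *Lgr4*, *Lgr6* and *Znrf3* run in opposite directions.

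The receptors that Rnf43 and Znrf3 remove were measured in the same cells. Of 12 such genes, *Fzd1* to *Fzd10*, *Lrp5* and *Lrp6*, 10 were not below background in both genotypes, 5 means were higher and 7 lower in Rspo1-null, and the median difference was -0.04, against -0.03 over all genes. *Fzd6* was the 1 past an unadjusted p of 0.05, with 5.32 and 5.41 in Rspo1-null, against 6.02 and 5.69 in wild-type arrays, a difference of -0.49 (standard error 0.18, unadjusted p = 0.0448, adjusted p = 0.999). Of all genes, 3.17% passed that unadjusted p. The *Fzd6* groups did not overlap, as in 6 of the 12 genes, against 31.2% of all genes. Those 6 include genes below background, and the share was not tested. The unadjusted call of *Fzd6* was lost in 10 of 13 alternatives. In limma with all 4 arrays kept, the lost calls had p between 0.0558 and 0.0878. *Fzd7*, the receptor of Wnt7a in myogenic cells, read 5.38 and 5.67 in Rspo1-null, against 6.51 and 5.80 in wild-type arrays, with a difference of -0.63 (standard error 0.29, unadjusted p = 0.0873). Its array wild-type 1 was high, and without it the difference was -0.27. *Fzd3* read 6.89 and 7.22 in Rspo1-null, against 6.85 and 6.78 in wild-type arrays, a difference of 0.25 (standard error 0.18), which was 0.08 without Rspo1-null 2 and 0.41 without Rspo1-null 1. The co-receptor *Lrp6* had a difference of -0.01, with a 95% interval from -0.39 to 0.36.

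Of 7 partners of the receptors and ligases, 0 passed an unadjusted p of 0.05 in limma. *Dvl1*, 1 of the Dishevelled proteins through which the ligases reach Frizzled, read 6.50 and 6.55 in Rspo1-null, against 6.21 and 6.31 in wild-type arrays, a difference of 0.27 (standard error 0.14). *Dvl3* had a difference of 0.30 (standard error 0.27), and -0.02 without wild-type 1. *Tnfrsf19*, which encodes Troy, a membrane protein that dampens R-spondin signals at Lgr5, read 4.19 and 4.42 in Rspo1-null, against 5.41 and 4.39 in wild-type arrays. Only wild-type 1 was above background, so no difference is read from it. Of 20 transcriptional targets of the canonical pathway, 19 were named here, 0 passed, and the median difference was -0.03. Only 10 of them were not below background in both genotypes, with a median difference of 0.05, against 0.03 over all such genes. Another 8 lay below background in all 4 arrays, *Axin2*, *Notum* and *Bmp2* among them, so no difference is read from those. The list holds *Fst*, *Gja5*, *Bmp2* and *Tgfb2*, which the study itself chose to follow in these cells. Its lowest p among genes with signal belonged to *Apcdd1*, a Wnt inhibitor, with a difference of 0.43 (standard error 0.26), though it was below background in wild-type 1 and the difference was 0.18 without that array and 0.20 without Rspo1-null 1. It was followed by *Id2*, an inhibitor of bHLH factors, with -0.15 (standard error 0.16; -0.05 without wild-type 2, -0.26 without wild-type 1), and *Ccnd1*, cyclin D1, with 0.41 (standard error 0.49).

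Genes with the profile most like that of each gene over the 4 arrays were taken by the Euclidean distance between log2 values centred on their own mean, among 12966 other genes above background in at least 1 array. For *Rspo1* these were *Ddx18* (distance 0.04), *Nkapd1* (0.06) and *Bbs10* (0.06), and 134 genes lay within a distance of 0.2. For *Lgr4* they were *Rnf39* (0.02), *Ncam1* (0.08), a cell adhesion gene of the myogenic list, and *Dusp27* (0.09). For *Znrf3* they were *Usp2* (0.02), *Zfp14* (0.04) and *Cox5b* (0.05), with 229 genes within 0.2. *Lgr6* had 0 genes within 0.2, and the nearest were *Platr14* (0.21), *Itga3* (0.25) and *Acot2* (0.25). With 4 arrays many genes share a profile, and these distances are a description only.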

How the data were processed

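RNA was hybridized to 4 Affymetrix Mouse Gene 2.1 ST arrays, of which 2 were labelled Rspo1-null and 2 labelled wild-type, the groups and numbers being those of the samples' titles. The authors deposited log2 values, 1 for each Entrez gene in each array; R is named in the supplementary methods, and the submitters' processing notes RMA and Partek, without versions. Quantile normalization is part of RMA, so differences are relative to the bulk of genes, and no detection calls remain. Of 24973 rows, 24015 had 1 symbol, 0 had several and 958 were not named here; for 4 symbols with several rows only the row of highest mean was used, leaving 24011 genes. All 9 genes matched RefSeq by Entrez number. Genotypes were compared with limma 3.58.1 in R 4.3.3, two-sided and unblocked, p-values being adjusted over 24011 genes by the Benjamini-Hochberg method; the supplementary methods' own gene-by-gene test with no adjustment was an alternative, called the methods' test. The fit was tested on simulated data with independent genes and no structure of sex or differentiation. That test therefore does not cover the deviations that genes share in these arrays. Named genes are the 9 genes, from each pathway list those past an unadjusted p of 0.05 and the 3 lowest p among genes not below background in both genotypes, the 3 nearest profiles, and the first markers of each list; *Lrp6*, *Col1a1*, the genes below background among the hormone receptors, *Rgs5*, *Cspg4*, *Abcc9* and the neighbors of *Rspo1* were added after their values were seen. The genes and lists were chosen with earlier results of these data known. The p-values rest on the spread between the 2 cultures of each genotype, which also differ in sex and mouse. In limma the spread of a gene is moderated by that of all genes.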

Additional observations from a re-analysis of the deposited data

Results flagged for a closer look

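*Lgr4*, *Lgr6* and *Znrf3* were flagged because the difference, Rspo1-null minus wild-type, had opposite signs in the pair of arrays with *Xist* and in the pair with Y-linked transcripts. Each pair is 1 array against 1, so this difference between the pairs was not tested. The pairs also differ in the summed level of the myoblast and myocyte genes given above, with *Myog* lower and *Pax7* and *Myf5* higher in the *Xist* pair. For *Lgr4* the *Xist* pair gave -0.048 and the Y-linked pair 0.73. For *Lgr6* the values were -0.86 in the *Xist* pair and 1.21 in the Y-linked pair. For *Znrf3* they were 0.15 in the *Xist* pair and -0.41 in the Y-linked pair. Of the 12280 genes not below background in both genotypes, 44.8% had opposite signs as well.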

How the results depend on the processing

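No gene of the module, and no gene of all tested, passed an adjusted p of 0.05 in limma under any alternative tried, nor with the methods' test, which gave 1139 genes at an unadjusted p under 0.05. The count of all genes past the unadjusted threshold was 760, and became 280 with genes below background removed, 400 with the replicate block, 1284 with the sex block and 540 to 1711 when 1 array was left out; fewer genes were tested in the first of these, and for the others the cause was not tested. Arrays of the same number deviated from their group means in opposite directions (correlation -0.36 across genes, which are not independent), and the crossed pairing, chosen after seeing the data, is the same model as the sex block and gave the same 1284 genes, 0 past the adjusted threshold, and 1 of the 9 genes past the unadjusted one. The labels do not say that a number marks a shared litter, batch or day. *Rspo1* was lower in Rspo1-null in 13 of 13 alternatives, but most of these could not have changed the sign. Alternatives that change only the test, the variance, the genes kept or a block left the difference at -0.46. Groups that do not overlap keep their direction when 1 array is left out, where the difference was -0.53 to -0.40. After median centring it was -0.41, after quantile normalization -0.46 and after cyclic loess -0.44. With all 4 arrays its unadjusted p was between 0.022, with the methods' test, and 0.0664, with the replicate block in limma. The call was lost with the intensity trend and with the replicate block, where 0 of the 9 genes passed. When 1 array was left out, the difference of *Lgr4* ranged from -0.10 to 0.78, that of *Lgr6* from -0.43 to 0.77, that of *Znrf3* from -0.48 to 0.22, that of *Dvl3* from -0.025 to 0.62 and that of *Ccnd1* from -0.26 to 1.07, so that these 5 have no settled direction. The unadjusted threshold was newly passed with the sex block by *Fzd7* and *Apcdd1*, and with the methods' test by *Dvl1*. Without wild-type 2 the difference was -0.99 for *Fzd7*, 1.07 for *Ccnd1* and -1.11 for *Tnfrsf19*, which was above background in wild-type 1 only. Without Rspo1-null 1 it was 0.78 for *Lgr4*. Each fit that leaves out 1 array assumes that the lone array of that genotype varies as the other genotype's arrays do. The number of genes above background in all 4 arrays was 4 under every definition tried except the 99th percentile, where it was 1. Single readings did depend on the level. With the 90th percentile, 4.07, *Rnf43* was above it in both wild-type arrays (4.23 and 4.08) and below it in both Rspo1-null arrays (3.999 and 3.91). *Rspo4* was above that level in Rspo1-null 2 (4.12). The split of all genes past the unadjusted threshold was 288 higher and 472 lower in Rspo1-null, 435 and 317 after median centring, and 346 and 337 after cyclic loess.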

Other observations

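The protein-coding genes next to *Rspo1* on its chromosome, in the RefSeq order of GRCm38.p6, were taken 5 to each side, and 9 of them had values here. *Gnl2*, the next gene on one side, which encodes a nucleolar GTPase, read 8.15 and 7.98 in Rspo1-null, against 8.05 and 7.93 in wild-type arrays. *9930104L06Rik*, the next on the other side, read 5.08 and 5.40 in Rspo1-null, against 5.64 and 5.27 in wild-type arrays. *Dnali1* had the lowest unadjusted p of the 9 in limma, 0.0901 (adjusted p = 0.999), with 5.15 and 5.35 in Rspo1-null, against 4.71 and 5.01 in wild-type arrays, and its groups did not overlap. *Meaf6* read 6.59 and 6.46 in Rspo1-null, against 5.83 and 6.40 in wild-type arrays, also without overlap (limma unadjusted p = 0.153). *Zc3h12a* was lower without overlap, with 5.03 and 4.96 in Rspo1-null, against 5.18 and 5.04 in wild-type arrays. Of all genes, 31.2% did not overlap in either direction, 12.1% higher and 19.1% lower in Rspo1-null.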
